A study of Homo sapiens with 8 samples.

Results

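The nuclear-encoded subunits of the mitochondrial respiratory chain and of ATP synthase were followed in Kasumi-1 cells, a human line of acute myeloid leukemia with the RUNX1-RUNX1T1 fusion gene. A gene was included if its symbol in the probe annotation named a subunit of complex I (NDUFA, NDUFB, NDUFC, NDUFS or NDUFV with a digit), complex II (SDHA to SDHD), complex III (UQCR genes and CYC1), complex IV (COX4I1, COX5, COX6, COX7 genes and COX8A) or ATP synthase (ATP5F1, ATP5M and ATP5P genes). Of 19775 genes measured, 79 symbols fit this rule, and after 2 pseudogenes and 3 noncoding RNAs were set aside 74 protein-coding members remained, with 32 in complex I, 3 in complex II, 7 in complex III, 15 in complex IV and 17 in ATP synthase. Subunits for which no probe set of a single symbol was followed were not analysed here. Among them were the complex I subunits NDUFS5, NDUFS8 and NDUFC2, the iron-sulfur proteins SDHB and UQCRFS1, UQCRH, NDUFA4 with its paralog NDUFA4L2, and the subunits encoded in mitochondrial DNA.

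All cells were electroporated with in vitro transcribed RNA and lysed 6 h later. The RNA encoded wild type NR4A1 (NR4A1 WT, 3 arrays), a form mutated in a zinc finger needed to bind DNA (NR4A1 CEAA, 2 arrays) or GFP as the control for the transfection (GFP, 3 arrays). NR4A1 is an orphan nuclear receptor with a tumor suppressor role in myeloid leukemia, and the mutant was included to ask which changes need its DNA binding. Expression from the introduced RNA is transient, only 1 time was sampled, and no protein or oxygen consumption was measured in these arrays. Each array was an Affymetrix human genome U133 Plus array, and a value is a log2 signal after Robust Multiarray Average (RMA), so a difference of 1 is a 2-fold change. Each gene was followed by its brightest probe set with 1 symbol, and signals of different probe sets are not compared as amounts.

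The respiratory chain is built into the inner mitochondrial membrane. Complexes I and II take electrons from NADH and succinate, ubiquinone carries them to complex III, cytochrome c carries them on to complex IV, and complexes I, III and IV pump protons as electrons pass. ATP synthase lets the protons return and makes ATP from the energy released. Most subunits are encoded in the nucleus, and their genes are often transcribed under NRF1, GABP (an ETS factor also called NRF2), YY1 and the PGC1 coactivators. The stem cells of acute myeloid leukemia are known for their reliance on this pathway.

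Members were bright. Their median level over the 8 arrays was 12.14 on the log2 scale, against 5.87 for all genes, and 65 of 74 reached a mean of at least 10, a level that 11% of all genes reached. The tissue isoforms COX6A2 and COX7A1 of muscle and COX6B2 and COX7B2 of testis had means of 4.94, 4.70, 4.94 and 3.49, of which COX7A1 and COX7B2 lay under the array medians, and none of them was called in any comparison. ATP5MF, a membrane subunit of ATP synthase, had a mean of only 5.03 in its only probe set with 1 symbol, and probe sets with several symbols were left out. The myeloblast genes MPO, KIT and RUNX1T1 were bright, at 14.40, 13.57 and 11.36, whereas CD34 had 7.68 and ANPEP 6.08. Against GFP, RUNX1T1 was lower by 0.36 and CD34 higher by 0.28 after NR4A1 WT, and KIT was higher by 0.25 after NR4A1 CEAA (adjusted p = 0.00122, 0.0251 and 0.0159, limma). Of 12 measured markers of T cells, B cells, monocytes, epithelium and fibroblasts, only EPCAM at 11.63 and COL1A1 at 7.39 had a mean above the median of all genes. The mean of these 12 markers ran from 5.23 to 5.24 in NR4A1 WT arrays, from 5.26 to 5.36 in NR4A1 CEAA arrays and from 5.32 to 5.35 in GFP arrays, with 1 marker called lower in each comparison with GFP and 3 (CD2, MS4A1 and EPCAM) lower with NR4A1 WT than with NR4A1 CEAA. Their part in the results was not tested. NR4A1 itself had a mean of 6.54 ± 0.07 (SD, n = 3) with NR4A1 WT, 6.54 ± 0.03 (SD, n = 2) with NR4A1 CEAA and 6.45 ± 0.16 (SD, n = 3) with GFP. Where its probe sets lie relative to the introduced RNA is not known here, so these values check no label. The sources do not say if replicates of a group were grown separately, and p-values then measure only the spread between these samples.

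After NR4A1 CEAA, transcripts of many subunits fell, while after NR4A1 WT the differences from GFP ran from -0.17 to 0.31. Each member was set against its mean in the GFP arrays, and the median over the 74 members was then 0.039, 0.067 and 0.067 in NR4A1 WT arrays, -0.164 and -0.185 in NR4A1 CEAA arrays and -0.00173, -0.014 and 0.017 in GFP arrays. The 3 groups did not overlap in this median. The spread of these array medians within groups had an SD of 0.016.

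**Figure D1:**
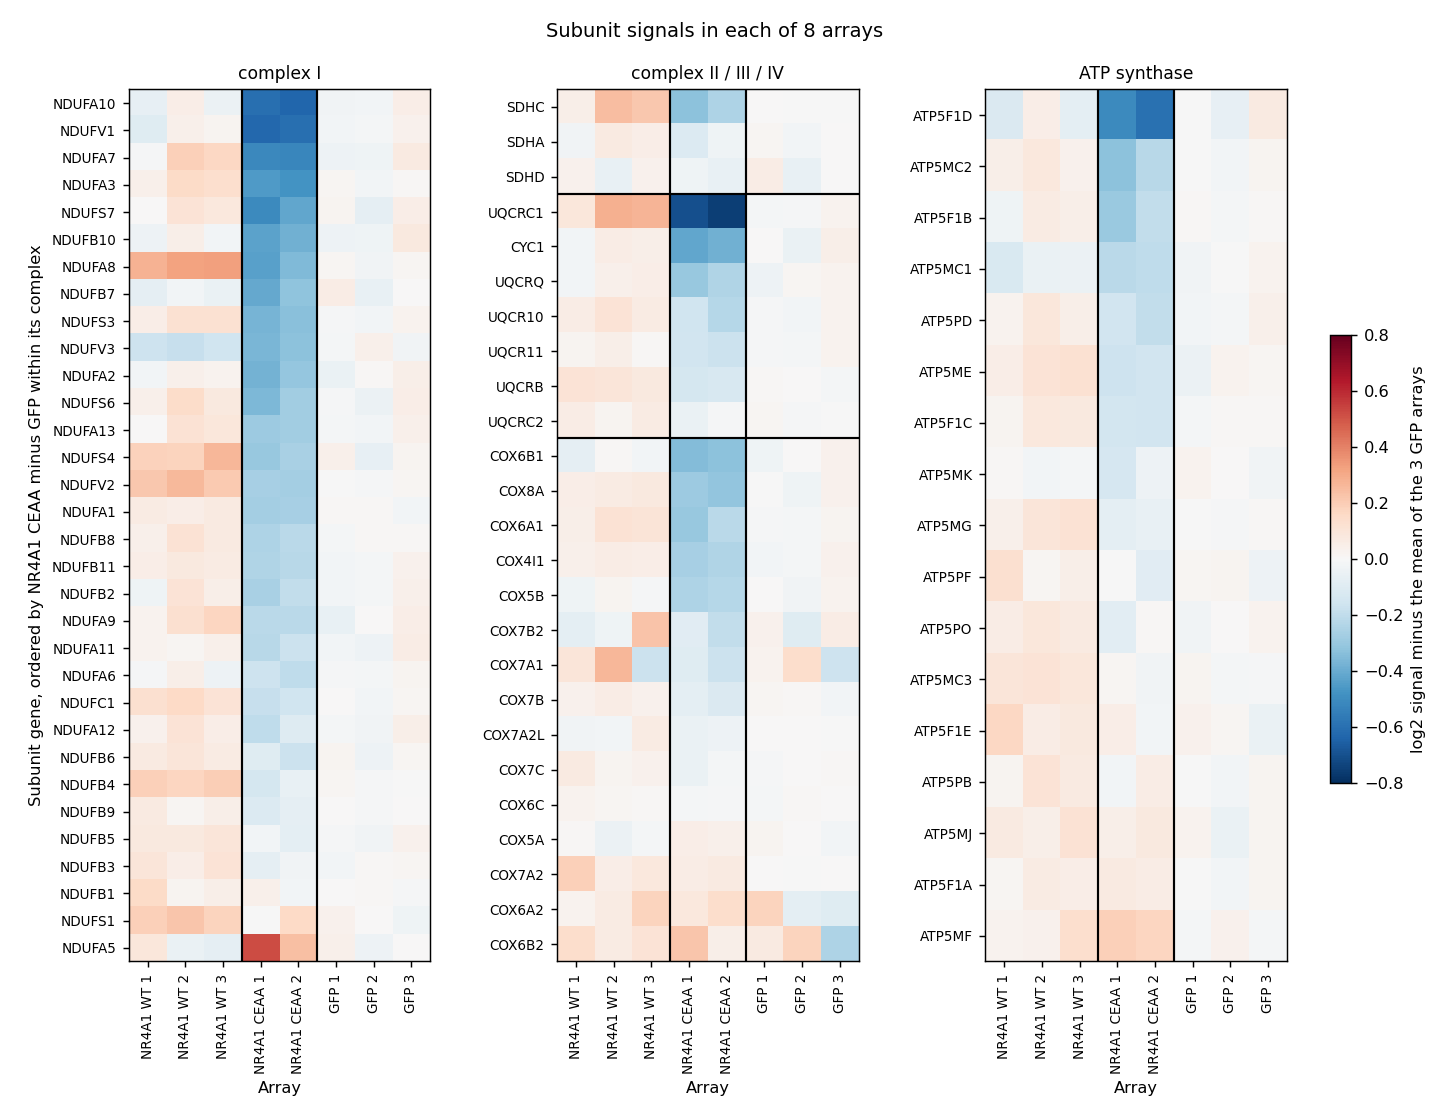
Signal of each of the 74 subunit genes in each array (columns) as a log2 difference from the mean of the 3 GFP arrays, with genes (rows) ordered within their complex by the difference between NR4A1 CEAA and GFP. The columns of NR4A1 CEAA are blue for most of complex I, with a group difference of -0.73 for UQCRC1 of complex III, and NDUFA5 is the only member whose rise after NR4A1 CEAA passed the test.

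The question for NR4A1 CEAA against GFP was whether the receptor with the altered zinc finger changes these transcripts. Of 74 members, 35 were lower and 1 was higher at an adjusted p under 0.05 (limma, Benjamini-Hochberg over all genes), where 12.1% of all genes tested were lower and 7.14% higher. Among all genes as bright as most members, with a mean of at least 10, 26.3% were lower and 12.7% higher. The median difference of the members was -0.17, against -0.03 over all genes, and 62 of 74 members lay below 0. The arrays of both groups did not overlap in 53 members that were lower and 6 that were higher, where 29.1% and 22.1% of all genes showed this, and 46.7% and 36.3% of genes with a mean of at least 10. In bulk RNA, less RNA per cell and fewer cells of a kind cannot be told apart.

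The fall was not particular to the respiratory chain. Of 72 genes for mitochondrial ribosomal proteins, a group set beside the members after the values were seen, 47 were lower and 0 higher (limma, and 57 lower and 1 higher at an unadjusted p under 0.05), with a median of -0.29. Of 59 genes for cytosolic ribosomal proteins, which are also bright, 3 were lower and 1 higher, with a median of -0.01. No test of one group against another was made.

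Complex I, the NADH dehydrogenase, held most of the falls. Its peripheral arm carries flavin and iron-sulfur clusters into the matrix and its membrane arm pumps protons. After NR4A1 CEAA 21 of its 32 members were lower and 1 higher, with 10 of 14 lower in the peripheral arm and 11 of 18 in the membrane arm, and a median of -0.25. NDUFV1, the subunit that binds FMN and oxidizes NADH, read 11.04, 11.18 and 11.16 with NR4A1 WT, 10.51 and 10.53 with NR4A1 CEAA and 11.12, 11.12 and 11.17 with GFP. Both NR4A1 CEAA arrays lay under all other arrays, while NR4A1 WT and GFP overlapped. The fall was 0.62 against GFP (standard error 0.06, limma, adjusted p = 0.000923), a 1.53-fold change.

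NDUFS7, whose iron-sulfur cluster hands electrons to ubiquinone, read 10.43, 10.53 and 10.51 with NR4A1 WT, 9.92 and 10.004 with NR4A1 CEAA and 10.44, 10.35 and 10.47 with GFP. The NR4A1 CEAA arrays were again the lowest, and the difference from GFP was -0.46 (standard error 0.06, adjusted p = 0.00305, limma). NDUFA10, an accessory subunit of the membrane arm, read 9.98, 10.09 and 9.99 with NR4A1 WT, 9.44 and 9.41 with NR4A1 CEAA and 10.01, 10.02 and 10.09 with GFP. It was lower by 0.62 (standard error 0.06, limma, adjusted p = 0.000917), and its NR4A1 CEAA arrays overlapped neither other group. Its 4 other probe sets, all with a mean under 5, made no call. The accessory subunits NDUFA7, NDUFA3 and NDUFB10 fell by 0.52, 0.47 and 0.41, and NDUFS3, a core subunit of the peripheral arm, by 0.35. Small falls were also called, such as that of NDUFA6 (-0.18, adjusted p = 0.0477, limma).

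Other subunits of complex I did not follow. NDUFS1, which carries iron-sulfur clusters next to NDUFV1, read 8.99, 9.02 and 8.98 with NR4A1 WT, 8.80 and 8.96 with NR4A1 CEAA and 8.84, 8.80 and 8.77 with GFP. The difference between NR4A1 CEAA and GFP was 0.08 with overlapping arrays (95% confidence interval -0.07 to 0.23). NDUFB1, NDUFB3 and NDUFB5, small subunits of the membrane arm, had differences of 0.01, -0.05 and -0.05. NDUFA5, an accessory subunit of the peripheral arm, was the only member called higher and read 10.24, 10.10 and 10.08 with NR4A1 WT, 10.68 and 10.39 with NR4A1 CEAA and 10.19, 10.11 and 10.15 with GFP. Its NR4A1 CEAA arrays lay above all others but differed from each other by more than any other group of this gene. The difference was 0.38 (standard error 0.09, adjusted p = 0.0235, limma), and its call ended without NR4A1 CEAA replicate 1 or without any 1 GFP array (adjusted p up to 0.157).

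Complex II is the succinate dehydrogenase, and SDHA, its flavoprotein, read 10.66, 10.76 and 10.73 with NR4A1 WT, 10.58 and 10.65 with NR4A1 CEAA and 10.70, 10.66 and 10.69 with GFP. The difference was -0.07 (95% confidence interval -0.20 to 0.06), although both NR4A1 CEAA arrays lay under the GFP arrays. SDHD, a membrane anchor, had -0.05. SDHC, the other anchor, was lower by 0.29 (adjusted p = 0.0274, limma), but its probe sets disagreed. Of 6 others, 1 fell by 0.86 and a dimmer one rose by 0.30, and without x_at probe sets, which can bind similar transcripts, the gene's difference was 0.08 with no call.

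In complex III, which passes electrons to cytochrome c, 4 of 7 members were lower, with a median of -0.20. UQCRC1, a core protein on the matrix side, showed the largest fall of all members and read 11.37, 11.56 and 11.56 with NR4A1 WT, 10.58 and 10.53 with NR4A1 CEAA and 11.26, 11.27 and 11.31 with GFP. All 3 groups were apart, with NR4A1 WT highest and NR4A1 CEAA lowest. Against GFP, its signal fell by 0.73 with the mutant (standard error 0.07, adjusted p = 0.000917, limma), a 1.65-fold change. CYC1, the heme protein cytochrome c1, read 12.52, 12.60 and 12.59 with NR4A1 WT, 12.13 and 12.16 with NR4A1 CEAA and 12.54, 12.49 and 12.59 with GFP. It fell by 0.40 (standard error 0.06, adjusted p = 0.0034, limma) without overlap, and the small subunits UQCRQ and UQCR10 fell by 0.27 and 0.20. UQCRC2, the partner of UQCRC1, had -0.03 in its followed probe set (adjusted p = 0.708, limma). Its probe sets disagreed, since one with a mean of 11.31 was lower by 0.41 and one with a mean of 4.25 higher by 1.05.

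Complex IV, cytochrome c oxidase, was lower in 5 of 15 members, COX6B1, COX8A, COX6A1, COX4I1 and COX5B, with falls between 0.23 and 0.34. Over all genes 12.1% were lower, and 26.3% of those with a mean of at least 10. The count alone is therefore no result about the complex. COX4I1, a subunit that joins the complex early and binds ATP, read 13.48, 13.51 and 13.50 with NR4A1 WT, 13.18 and 13.20 with NR4A1 CEAA and 13.43, 13.43 and 13.48 with GFP. Its fall of 0.25 (standard error 0.05, adjusted p = 0.0118, limma) placed both NR4A1 CEAA arrays under all others. In COX5B, a zinc-binding subunit, all 3 other probe sets were lower too, by 0.36 to 0.41. COX5A, the partner of COX4I1 in the early assembly, read 12.85, 12.79 and 12.82 with NR4A1 WT, 12.89 and 12.88 with NR4A1 CEAA and 12.86, 12.84 and 12.82 with GFP. The difference was 0.05 (95% confidence interval -0.07 to 0.17). COX7A2, the ubiquitous form of its subunit, and COX6C, another small subunit, had differences of 0.07 and -0.01.

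ATP synthase was lower in 4 of 17 members, ATP5F1D, ATP5F1B, ATP5MC2 and ATP5MC1, with a median of -0.07. This share is near the 26.3% of all genes with a mean of at least 10 that were lower, so the count is no result about the complex. ATP5F1D, the delta subunit of the central stalk, read 10.10, 10.28 and 10.14 with NR4A1 WT, 9.71 and 9.62 with NR4A1 CEAA and 10.21, 10.15 and 10.29 with GFP. The NR4A1 CEAA arrays lay under all others, and the fall against GFP was 0.55 (standard error 0.07, adjusted p = 0.00245, limma). Its other probe set was lower by 0.37. ATP5F1B, the catalytic beta subunit, read 13.02, 13.12 and 13.09 with NR4A1 WT, 12.75 and 12.85 with NR4A1 CEAA and 13.06, 13.03 and 13.06 with GFP and fell by 0.25 (adjusted p = 0.0226, limma). ATP5F1A, the alpha subunit that alternates with it in the head of the enzyme, read 13.77, 13.82 and 13.81 with NR4A1 WT, 13.83 and 13.81 with NR4A1 CEAA and 13.75, 13.73 and 13.78 with GFP. Its difference was 0.07 (95% confidence interval -0.05 to 0.19), so the 2 subunits of the same ring of the enzyme were not called alike. ATP5MC1, ATP5MC2 and ATP5MC3 encode the same mature c subunit of the membrane rotor and had differences of -0.21, -0.28 and -0.01. Averaged over all its probe sets ATP5MC2 had 0.23 with no call. No member of the peripheral stalk was called.

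**Figure D2:**
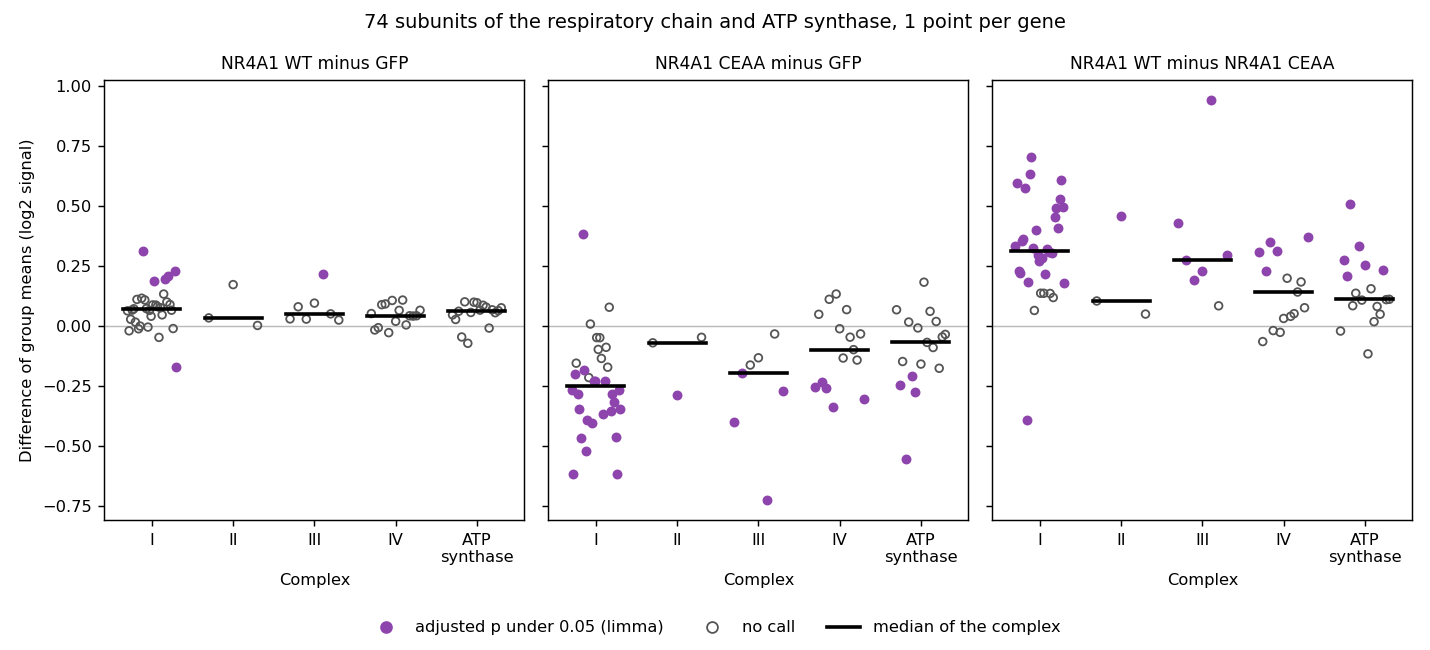
Difference of group means on the log2 scale (vertical axis) for each of the 74 subunit genes, by complex (horizontal axis) and comparison (panels), with filled points for an adjusted p under 0.05 in limma and bars at the median of a complex. In the panel of NR4A1 CEAA minus GFP the median is -0.25 in complex I and -0.07 in ATP synthase, and in the panel of NR4A1 WT minus GFP all 5 medians lie between 0.03 and 0.07.

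The complexes also differed in brightness. In complex I 23 of 32 members, and in ATP synthase 3 of 17, had a mean under the members' median of 12.14. Of the 37 members under that level 21 were lower after NR4A1 CEAA, and of the 37 above it 14 were lower. Complex II was the dimmest, with a median level of 10.80 and all 3 members under 12.14, and its median difference was -0.07. Between NR4A1 CEAA and GFP the median difference was -0.22 in the 37 members under 12.14 and -0.13 in the 37 above it. Between NR4A1 WT and NR4A1 CEAA both sets of 37 had a median of 0.23. The part of brightness in the order of the complexes was not tested. The members had 72 probe sets beside the followed ones, in 43 genes, of which 14 were lower and 4 higher after NR4A1 CEAA. Of these 72, 19 had a mean of at least 10, and here 10 were lower and 0 higher, with a median of -0.22. By the followed probe sets 12.1% of all genes were lower and 7.14% higher, and 26.3% and 12.7% of genes with a mean of at least 10. The shares over all probe sets with 1 symbol are not given here, so these counts alone are no result about the members.

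The count after NR4A1 CEAA rests on 2 arrays. It was 26, 27 and 22 without GFP replicates 1, 2 and 3, where 8.64%, 8.95% and 7.99% of all genes were lower. Without either NR4A1 CEAA array it was smaller still, as was the share of all genes lower. The lone NR4A1 CEAA array was then assumed to vary like the other groups. Of the 36 calls 13 stayed with any 1 array left out. Those 13 were ATP5F1D, COX6B1, CYC1, NDUFA10, NDUFA3, NDUFA7, NDUFA8, NDUFB10, NDUFS3, NDUFS7, NDUFV1, NDUFV3 and UQCRC1. Rank Product, the test named in the study's methods, called 3 members lower, UQCRC1, NDUFA10 and NDUFV1, where 1.37% of all genes were lower. The median of the members was -0.19 to -0.16 with each array left out in turn.

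The question for NR4A1 WT against GFP was whether the intact receptor changes the same transcripts. Of 74 members 6 were higher and 1 lower, where 9.97% of all genes were higher and 10.3% lower, so the share of members higher was near that of all genes and the share lower was smaller. Among genes with a mean of at least 10, 14.6% were higher and 16.3% lower. The median difference was 0.06, against 0.00 over all genes, with 61 of 74 members above 0. The arrays did not overlap in 36 members that were higher and 2 that were lower, where 17.8% of all genes were apart in each direction, and 29.7% and 30.5% of genes with a mean of at least 10. By complex the medians were 0.07, 0.03, 0.05, 0.04 and 0.06 in complexes I, II, III and IV and in ATP synthase.

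The 6 higher members were NDUFA8, NDUFV2, UQCRC1, NDUFS4, NDUFS1 and NDUFB4, of which 5 belong to complex I. Complex I holds 32 members, and 5 of 32 is near the 14.6% of genes with a mean of at least 10 that were higher. The count is no result about the complex. NDUFA8, an accessory subunit on the side of the intermembrane space, read 11.21, 11.25 and 11.26 with NR4A1 WT, 10.49 and 10.58 with NR4A1 CEAA and 10.94, 10.90 and 10.94 with GFP. The 3 groups were apart, and the rise over GFP was 0.31 (standard error 0.05, adjusted p = 0.00281, limma), a 1.24-fold change. NDUFV2, an iron-sulfur subunit beside NDUFV1, read 11.78, 11.82 and 11.77 with NR4A1 WT, 11.30 and 11.30 with NR4A1 CEAA and 11.56, 11.55 and 11.58 with GFP. It was higher by 0.23 (standard error 0.05, adjusted p = 0.00839, limma), again with all groups apart.

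NDUFS4, an accessory subunit whose loss in humans causes complex I deficiency, read 10.65, 10.65 and 10.73 with NR4A1 WT, 10.16 and 10.21 with NR4A1 CEAA and 10.51, 10.40 and 10.49 with GFP. It was higher by 0.21 (adjusted p = 0.0271, limma). NDUFB4, of the membrane arm, read 12.78, 12.76 and 12.79 with NR4A1 WT, 12.45 and 12.53 with NR4A1 CEAA and 12.61, 12.58 and 12.59 with GFP and was higher by 0.19 (adjusted p = 0.0265, limma). UQCRC1 and NDUFS1, given above, were higher by 0.22 and 0.20 with adjusted p = 0.0477 and 0.0473 (limma).

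NDUFV3, a small subunit that binds NDUFV1 and NDUFV2, was the only member lower after NR4A1 WT and read 9.83, 9.82 and 9.84 with NR4A1 WT, 9.64 and 9.67 with NR4A1 CEAA and 9.99, 10.04 and 9.98 with GFP. It was lower after both forms of the receptor, by 0.17 after NR4A1 WT (adjusted p = 0.0363, limma) and by 0.35 after NR4A1 CEAA (adjusted p = 0.00389, limma). With any 1 array left out NDUFA8 and NDUFV2 kept their calls, and the others lost theirs in at least 4 of 6 cases. The number of higher members was 2 to 5 in these cases, where 7.3% to 8.97% of all genes were higher. It was 20 with a trend of spread on intensity in limma, where 12.4% of all genes were higher. Rank Product called 0 members in either direction, where it called 2.24% of all genes higher and 2.12% lower. At an unadjusted p under 0.05 in limma 8 members were higher and 1 lower. The share of all genes at that unadjusted threshold is not given here.

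**Figure D3:**
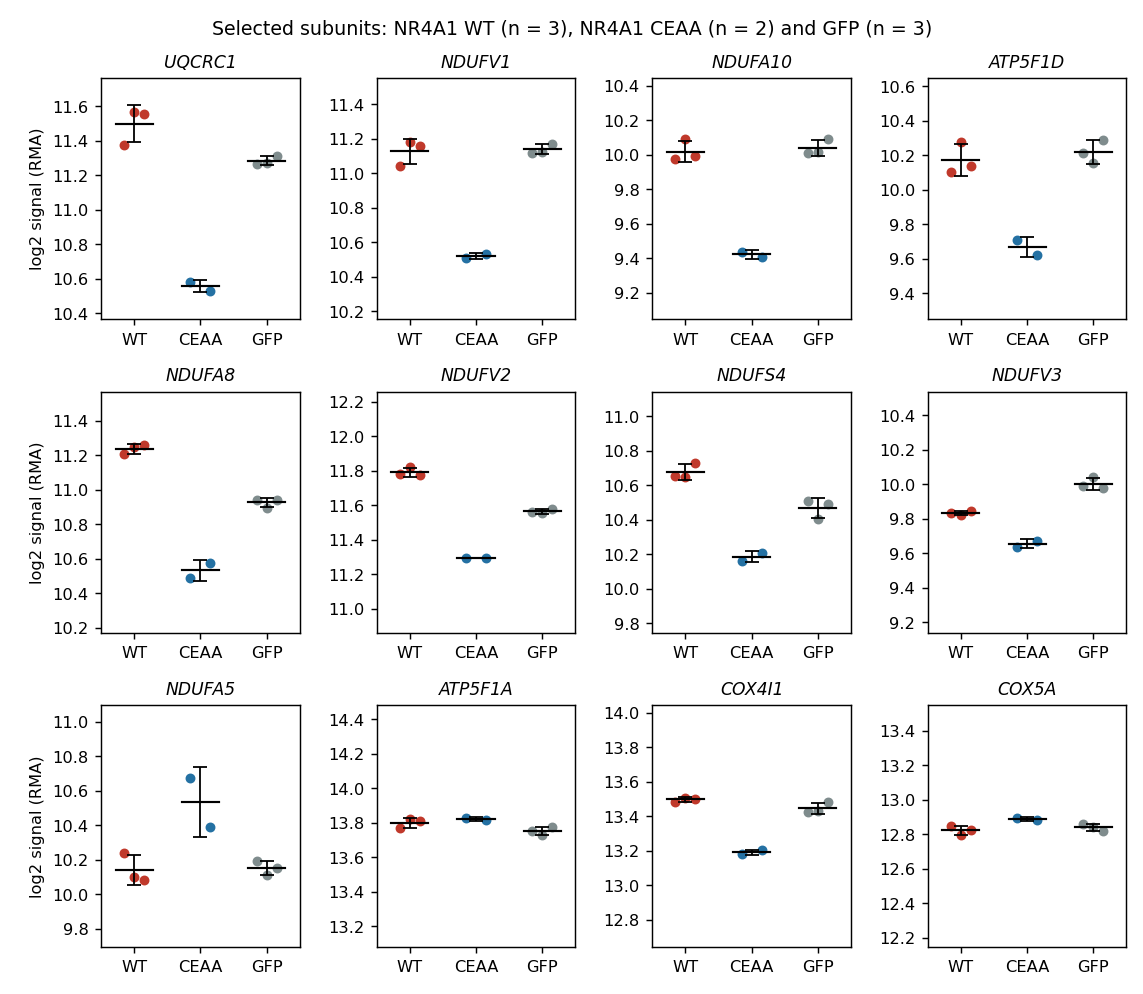
Log2 signal (vertical axes, each spanning at least 1.4) of 12 subunit genes in the arrays of NR4A1 WT, NR4A1 CEAA and GFP (horizontal axis), with points for arrays, horizontal bars for group means and error bars for the SD. UQCRC1, NDUFA8, NDUFV2 and NDUFS4 are highest with NR4A1 WT and lowest with NR4A1 CEAA, NDUFA5 is highest with NR4A1 CEAA, and ATP5F1A and COX5A stay within 0.1 of GFP.

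Both forms of the receptor were compared directly, since the comparisons above share the GFP arrays. With NR4A1 WT over NR4A1 CEAA, 44 of 74 members were higher and 1 was lower (limma), where 18% of all genes were higher and 13.4% lower. Among genes with a mean of at least 10 these shares were 34% and 23.5%. The median difference was 0.23, against 0.03 over all genes, and arrays did not overlap in 62 members that were higher and 3 that were lower, where 30.4% and 22.6% of all genes were apart, and 48% and 35.2% of genes with a mean of at least 10. With 1 NR4A1 WT array left out the number of higher members was 41 to 43, where 16.6% to 17.7% of all genes were higher. Without an NR4A1 CEAA array it was smaller, as was the share of all genes higher. With any 1 array left out 31 of the 45 calls stayed. Rank Product called only UQCRC1 higher and 0 members lower, where 1.85% and 0.941% of all genes were called.

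In complex I 26 of 32 members were higher with NR4A1 WT than with NR4A1 CEAA, in complex II 1 of 3, in complex III 6 of 7, in complex IV 5 of 15 and in ATP synthase 6 of 17. Among all genes with a mean of at least 10, 34% were higher. The counts in complexes II and IV and in ATP synthase were near that share and are no result about them. UQCRC1 differed most, by 0.94 (standard error 0.07, adjusted p = 5.23e-05, limma), a 1.92-fold change. NDUFA8 differed by 0.70 (standard error 0.06, adjusted p = 6.03e-05, limma), and its difference combined a rise after NR4A1 WT with a fall after NR4A1 CEAA. For NDUFA7, NDUFV1, NDUFA10, NDUFA3 and NDUFS7 the differences were 0.63, 0.61, 0.60, 0.58 and 0.53, with no call of these members between NR4A1 WT and GFP. ATP5F1D, NDUFV2 and NDUFS4 differed by 0.51, 0.50 and 0.49. The only member lower with NR4A1 WT than with NR4A1 CEAA was NDUFA5 (-0.39, adjusted p = 0.0122, limma), and its call ended without NR4A1 CEAA replicate 1 (adjusted p = 0.0939). ATP5F1A, COX5A and SDHA had differences of -0.02, -0.07 and 0.10 with no call.

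Promoter sequences of RefSeq (build GRCh38.p14, 250 bases before to 50 bases after the start, the first start listed for a gene) were matched to 63 of the 74 members. They were searched on both strands for AAAGGTCA (the NBRE, to which NR4A1 binds as a monomer), CCGGAAG (the core bound by ETS factors such as GABP), GCATGCGC (the core of the NRF1 site) and AAGATGGCG (the YY1 site). The NRF1 core overlaps its own reverse complement where the site is palindromic, and such a site was counted once for a promoter. The NBRE was found in 2 of 63 member promoters (3.17%), against 0.991% of 15842 promoters of protein-coding genes. The ETS core was found in 28.6% against 14.2%, the NRF1 core in 19.0% against 4.26% and the YY1 site in 11.1% against 2.74%. Among members lower after NR4A1 CEAA these shares were 3.23%, 32.3%, 22.6% and 16.1%, and among members without a call 3.23%, 25.8%, 16.1% and 6.45% (31 promoters each). A match describes letters in this window and not a bound site.

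The promoters of 5 members are printed to show how motif and response were combined, in lower case with the motif letters in capitals. NDUFS7 (chr19:1383657-1383956, plus strand) fell after NR4A1 CEAA and is the only one with an NBRE among the 31 falling members whose promoter was searched, read here on the opposite strand as TGACCTTT, followed by an NRF1 core and a YY1 site. UQCRC1 (chr3:48609597-48609896, minus strand) fell most and holds a YY1 site behind the start. NDUFA8 (chr9:122159730-122160029, minus strand), higher after NR4A1 WT and lower after NR4A1 CEAA, holds an NRF1 core read on both strands at the start. NDUFA5 (chr7:123601602-123601901, minus strand), the member higher after NR4A1 CEAA, holds none of the 4 motifs. ATP5PF (chr21:25735005-25735304, minus strand), a subunit of the peripheral stalk with a difference of -0.05 after NR4A1 CEAA and no call, holds an NRF1 core, a YY1 site and an ETS core.
NDUFS7: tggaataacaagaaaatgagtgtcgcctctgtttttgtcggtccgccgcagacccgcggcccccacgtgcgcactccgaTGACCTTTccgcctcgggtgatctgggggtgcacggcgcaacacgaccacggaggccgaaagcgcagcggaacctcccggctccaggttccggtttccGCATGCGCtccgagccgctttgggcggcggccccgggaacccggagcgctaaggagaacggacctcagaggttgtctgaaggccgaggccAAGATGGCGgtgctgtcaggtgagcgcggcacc
UQCRC1: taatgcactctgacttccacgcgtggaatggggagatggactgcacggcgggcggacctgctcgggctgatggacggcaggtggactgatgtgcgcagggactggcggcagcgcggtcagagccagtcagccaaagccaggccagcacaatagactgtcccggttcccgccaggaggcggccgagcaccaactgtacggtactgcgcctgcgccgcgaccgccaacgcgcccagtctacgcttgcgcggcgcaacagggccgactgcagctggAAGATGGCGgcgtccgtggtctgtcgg
NDUFA8: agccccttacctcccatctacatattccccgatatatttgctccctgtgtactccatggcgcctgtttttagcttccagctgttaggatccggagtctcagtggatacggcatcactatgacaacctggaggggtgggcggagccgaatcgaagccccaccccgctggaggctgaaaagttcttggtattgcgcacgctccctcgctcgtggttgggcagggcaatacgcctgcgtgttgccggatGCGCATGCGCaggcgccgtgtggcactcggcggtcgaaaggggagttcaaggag
NDUFA5: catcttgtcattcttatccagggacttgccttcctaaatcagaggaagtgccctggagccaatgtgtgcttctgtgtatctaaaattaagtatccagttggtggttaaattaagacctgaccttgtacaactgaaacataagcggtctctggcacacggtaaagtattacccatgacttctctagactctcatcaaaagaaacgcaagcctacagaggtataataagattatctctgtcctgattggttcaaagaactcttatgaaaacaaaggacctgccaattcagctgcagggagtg
ATP5PF: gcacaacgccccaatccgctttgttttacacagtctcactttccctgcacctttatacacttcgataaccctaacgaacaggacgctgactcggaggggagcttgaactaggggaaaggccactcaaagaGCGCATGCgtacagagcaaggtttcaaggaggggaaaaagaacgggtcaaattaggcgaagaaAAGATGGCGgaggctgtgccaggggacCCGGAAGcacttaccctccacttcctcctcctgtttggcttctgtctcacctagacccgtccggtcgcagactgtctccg

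The genes that regulate mitochondrial biogenesis were measured beside the subunits. Of 19, after NR4A1 WT 2 were higher and 5 lower than with GFP, and after NR4A1 CEAA 3 were higher and 3 lower. In the whole gene set, limma called 9.97% up and 10.3% down with the wild type against GFP. With the mutant it called 7.14% up and 12.1% down. The 2 regulators up with the wild type and the 3 down with the mutant were near these shares. Neither count is therefore a result about the list. PPARGC1B, a coactivator of the PGC1 family, read 7.25, 7.10 and 7.20 with NR4A1 WT, 8.48 and 8.45 with NR4A1 CEAA and 7.81, 7.96 and 7.76 with GFP. The 3 groups were apart, with a fall of 0.66 after NR4A1 WT (adjusted p = 0.000312, limma) and a rise of 0.62 after NR4A1 CEAA (adjusted p = 0.00189, limma), and a direct difference of -1.28 (adjusted p = 1.99e-05, limma). Of its 3 dimmer probe sets 1 was also lower after NR4A1 WT, by 0.71.

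TWNK, the helicase of mitochondrial DNA, read 8.18, 8.15 and 8.08 with NR4A1 WT, 9.13 and 9.15 with NR4A1 CEAA and 9.14, 9.09 and 9.15 with GFP. It fell by 0.99 after NR4A1 WT (adjusted p = 7.96e-06, limma), with NR4A1 CEAA and GFP overlapping. PPRC1, another coactivator of the PGC1 family, read 8.92, 8.86 and 8.87 with NR4A1 WT, 9.73 and 9.71 with NR4A1 CEAA and 9.51, 9.66 and 9.56 with GFP and was lower by 0.69 after NR4A1 WT (adjusted p = 8.01e-05, limma). TFAM and TFB2M, which start transcription of mitochondrial DNA and were named after their values were seen, fell by 0.34 and 0.51 after NR4A1 WT. GABPA, the DNA-binding subunit of GABP, read 9.30, 9.13 and 9.14 with NR4A1 WT, 9.55 and 9.54 with NR4A1 CEAA and 8.89, 8.87 and 8.86 with GFP. It was higher by 0.32 after NR4A1 WT and by 0.67 after NR4A1 CEAA (adjusted p = 0.00613 and 0.000917, limma), and the mutant arrays were the highest. GABPB2, a partner of GABPA, rose by 0.72 after NR4A1 WT (adjusted p = 0.000162, limma), had -0.10 after NR4A1 CEAA with no call, and differed directly by 0.81 (adjusted p = 0.000115, limma). After NR4A1 CEAA POLRMT, the mitochondrial RNA polymerase, was lower by 0.36 and the nuclear receptor ESRRA by 0.33. NRF1 had -0.08 after NR4A1 WT and -0.00 after NR4A1 CEAA, and YY1 had -0.03 and 0.15, none of them called. Of the 5 other probe sets of YY1, 1 with a mean of 10.14 was lower by 0.28 after NR4A1 WT (adjusted p = 0.0194, limma).

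**Figure D4:**
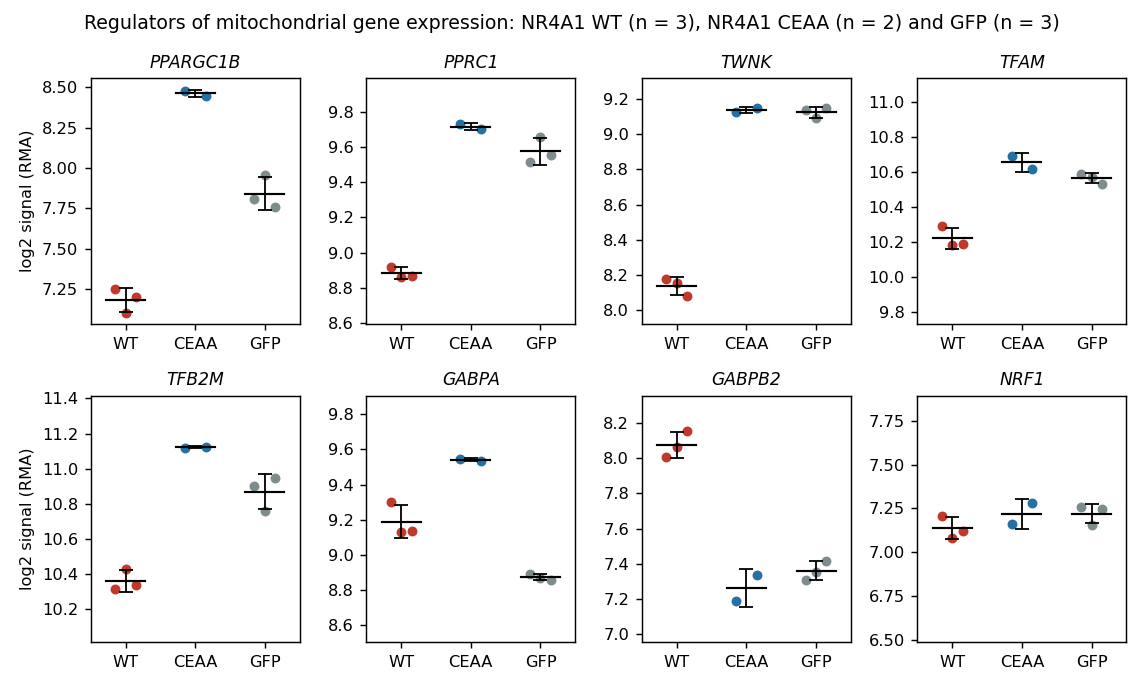
Log2 signal (vertical axes) of 8 regulators of mitochondrial gene expression in the arrays of NR4A1 WT, NR4A1 CEAA and GFP (horizontal axis), with points for arrays, horizontal bars for group means and error bars for the SD. PPARGC1B is lowest with NR4A1 WT and highest with NR4A1 CEAA, TWNK and PPRC1 are low with NR4A1 WT, and NRF1 overlaps in all groups.

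Assembly factors build the complexes without remaining in them. Of 62 measured, 23 were lower and 4 higher after NR4A1 CEAA, and 10 lower and 7 higher after NR4A1 WT, with medians of -0.13 and -0.01 against GFP. Over all genes 12.1% were lower and 7.14% higher after NR4A1 CEAA, and 10.3% and 9.97% after NR4A1 WT. Among genes with a mean of at least 10 these shares were 26.3% and 12.7%, and 16.3% and 14.6%. The 4 factors higher after NR4A1 CEAA and both counts after NR4A1 WT were near these shares. Those counts are no result about the list. Of 6 factors for complex III 1 was lower after NR4A1 CEAA, a count near the share of all genes, with a median of -0.02. NDUFAF3, a factor for the peripheral arm of complex I, was lower by 0.63 after NR4A1 CEAA (adjusted p = 0.00101, limma). TMEM242, a factor for ATP synthase, was lower by 0.50 after NR4A1 CEAA and higher by 0.29 after NR4A1 WT (adjusted p = 0.00166 and 0.00558, limma), with a direct difference of 0.78 (adjusted p = 4.83e-05, limma). ATP5IF1, which inhibits ATP synthase, was lower by 0.34 after NR4A1 CEAA. COA7, a factor for complex IV, was lower by 0.73 after NR4A1 WT (adjusted p = 6.37e-05, limma), and LYRM7, a factor for the iron-sulfur protein of complex III, was lower by 0.43 there (adjusted p = 0.0009, limma).

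The neighbours of the chain in metabolism were divided. Of 15 genes of the citric acid cycle and pyruvate dehydrogenase, 4 were higher and 4 lower after NR4A1 CEAA, and 3 higher and 0 lower after NR4A1 WT (1 lower at an unadjusted p under 0.05 in limma). Over all genes 7.14% were higher and 12.1% lower after NR4A1 CEAA, and 9.97% and 10.3% after NR4A1 WT. Among genes with a mean of at least 10 these shares were 12.7% and 26.3%, and 14.6% and 16.3%. The 4 genes lower after NR4A1 CEAA were thus near the share of such bright genes. IDH3G, a regulatory subunit of the NAD-dependent isocitrate dehydrogenase, fell by 0.97 with the mutant (adjusted p = 0.000176, limma), more than any subunit of the chain, and its other probe set was lower by 0.55. IDH3B of the same enzyme and OGDH, the oxoglutarate dehydrogenase, fell by 0.45 and 0.60. Of 13 genes for ubiquinone synthesis and cytochrome c, 5 were lower and 0 higher after NR4A1 CEAA (2 higher at an unadjusted p under 0.05 in limma), and 4 higher and 3 lower after NR4A1 WT. COQ4 was lower by 0.49 with the mutant (adjusted p = 0.00192, limma), while PDSS1, which makes the side chain of ubiquinone, fell by 0.46 and COQ3, a methyltransferase of that pathway, rose by 0.43 after NR4A1 WT (adjusted p = 0.000423 and 0.00091, limma).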

How the data were processed

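RNA of 8 samples was labelled for Affymetrix U133 Plus arrays, and the deposited values are log2 probe set signals that the authors made by RMA in RMA Express, whose version is not given in the sources used here. RMA subtracts background, gives all arrays 1 distribution (quantile normalization) and joins the probes of each set into 1 value, which compresses differences near background. Values ran from 2.29 to 14.97, with array medians of 4.75 to 4.80. No detection call was used, and the number of arrays limits the precision.

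Of 54613 probe sets, 41091 had 1 symbol, 1801 several and 11721 none, and the brightest of each of 19775 genes was followed. Of these genes 19735 matched RefSeq by identifier. All 3 groups entered 1 fit of limma 3.58.1 under R 4.3.3 (lmFit, eBayes, 8.04 degrees of freedom), two-sided, with Benjamini-Hochberg adjustment over all genes and a threshold of 0.05. For other probe sets the adjustment ran over all probe sets with 1 symbol. The members and lists were chosen with earlier results of these data known. Named are, per comparison, up to 10 higher and 10 lower members with the largest change past the test and no overlap of arrays, fixed catalytic subunits and tissue isoforms, and up to 3 genes of each list with the largest change past the test. Others were named after their values were seen. Alternatives were another moderation, array weights, filters on dim probe sets, centring, a second quantile normalization, a block for the replicate number, the mean of all probe sets of a gene, Rank Product (100 permutations), arrays left out in turn, and, chosen after seeing the data, no x_at probe sets. On simulated data of 19775 genes the limma step was tested with known changes.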

Additional observations from a re-analysis of the deposited data

How the results depend on the processing

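The medians of the members kept their sign in every alternative run. For NR4A1 WT against GFP, 6 members were higher and 1 lower. The number higher was 20 with an intensity trend, where 12.4% of all genes were higher. It was 19 of 65 members among genes with a mean of at least 10, where 25.7% of the genes tested were higher. It was 3 with the mean of all probe sets of a gene, 0 by Rank Product and 2 to 5 with each array left out. The number lower was 0 with only the arrays of both groups, with arrays centred, by Rank Product and with any array left out. It was also 0 among genes with a mean of at least 10, but that filter removes NDUFV3, the only member called lower. The median of 0.06 became 0.0484 with all probe sets, and 0.05 to 0.07 with arrays left out.

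For NR4A1 CEAA against GFP, 35 were lower and 1 higher. The number lower was 3 by Rank Product and 14 to 27 with arrays left out, where a lone NR4A1 CEAA array is assumed to vary like the other groups. The number higher was 2 with array weights, with a filter at the array median and with all probe sets, 0 by Rank Product and 0 to 1 with arrays left out. The median of -0.17 became -0.19 centred, -0.15 after quantile normalization and -0.13 with all probe sets. For NR4A1 WT against NR4A1 CEAA, 44 were higher and 1 lower, with 1 and 0 by Rank Product, 3 lower with all probe sets, and 33 to 43 higher and 0 to 1 lower with arrays left out. The median of 0.23 became 0.25 centred, 0.20 after quantile normalization and 0.14 with all probe sets. The cause was not tested.

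With the replicate number as a block, 2 members were higher and 0 lower after NR4A1 WT, and 23 lower after NR4A1 CEAA. The numbers do not pair the arrays, since deviations of arrays with the same number correlated between -0.04 and 0.09.

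These genes changed sign. With the mean of all probe sets, NR4A1 WT against GFP, NDUFS1 had -0.00408. NR4A1 CEAA against GFP gave ATP5MC2 0.23, TFB2M -0.00487 and COA1 0.0389. NR4A1 WT against NR4A1 CEAA gave ATP5MC2 -0.0543, ATP5PD -0.00629, NDUFS1 -0.29, UQCRC2 -0.40, COQ9 -0.0277, COA1 -0.10 and ATP5IF1 -0.00787. Without x_at probe sets SDHC had 0.0806 and COA1 0.36 after NR4A1 CEAA, and in the direct comparison ATP5F1C had -0.13 and COA1 -0.71. The mean of all probe sets gives dim probe sets the same weight as bright ones.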

Other observations

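Among features set aside, the pseudogene COX6A1P1, with a mean of 4.36, was higher by 0.41 after NR4A1 CEAA (adjusted p = 0.0396, limma), whereas COX6A1 was lower. The pseudogene ATP5MC2P1 and the noncoding RNAs NDUFV1-DT, NDUFB2-AS1 and NDUFV2-AS1 were not called in any comparison.

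Probe sets of the same gene differed after NR4A1 CEAA in NDUFS1, as in SDHC and UQCRC2 above. A dim probe set of NDUFS1 was higher by 1.25, while the followed one made no call. Which transcripts these probe sets detect was not analysed here.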
